A study of Mus musculus with 4 samples.

Results

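The uterine mesothelium is the thin sheet of cells that covers the outer surface of the uterus, and 105 of the 8566 uterine cells kept here, and of 21326 kept cells in the whole series, belonged to it. Cells were taken from both uterus libraries when no fewer than 500 genes were detected and no more than 15% of UMIs were mitochondrial (UMIs are unique molecular identifiers, the counted RNA molecules). Members were chosen by their own marker counts: a cell was a member when it held at least 3 of the 6 mesothelial genes Upk3b, Upk1b, Msln, Lrrn4, Krt19 and Lgals7, Upk3b or Lrrn4 among them, and when these genes made up at least 0.05% of its UMIs. Cells with any UMI of Epcam, an epithelial adhesion molecule, or of Pecam1, an endothelial adhesion molecule, were left out. Uterus library 1 gave 57 members and uterus library 2 gave 48.

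The study profiled single cells of the oviduct and the uterus of wild type, untreated CD1 neonates on postnatal day 3, and 2 libraries were made per organ. Each library came from a pool of 3 or 4 neonates, and oviducts and uteri were collected from the same animals. The organs were digested by a mix of Collagenase B, Dispase II and DNase I, and the labels describe the cells as mesenchymal and epithelial. Because animals were pooled, every p-value below measures the spread between libraries and not between animals. The same rule applied to the oviduct libraries gave 677 cells, 320 and 357, which serve as the counterpart from the neighbouring segment of the duct.

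Mesothelium is a simple squamous layer of mesodermal origin that lines the body cavity and covers the organs in it. It carries both epithelial features (keratins, apical microvilli, a basement membrane) and mesenchymal ones (vimentin, the transcription factor Wt1), and it secretes the glycoprotein-rich fluid that lets organs slide. On the female tract it forms the serosa, outside the muscle layer and the stroma, and in embryos mesothelial cells can contribute fibroblasts and smooth muscle to the organ below.

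The deposited libraries held 61117726 and 70172415 UMIs for the uterus and 114419939 and 82213345 for the oviduct. Members had a median of 14407 UMIs in uterus library 1 and 20795.5 in uterus library 2, with a range of 5777 to 73700 and of 3857 to 57789. They had a median of 4162 and 4908 detected genes. Summed, members gave 1201430 and 1047800 UMIs, of which the 10 deepest cells held 39.5% and 36.5%. Between 6 and 10 kept barcodes were shared by any 2 libraries, and 1 member barcode of uterus library 1 was among them. The 6 genes of the rule made up a median of 0.293% and 0.246% of a member's UMIs, and 33 and 29 members held all 6. The lowest member stood at 0.0809% and 0.0590%, and the highest cell that failed this limit alone at 0.0490% and 0.0485%. The exclusion of Epcam and Pecam1 removed 35 and 31 cells that met the rest of the rule, with a median of 23633 and 37468 UMIs.

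Levels below are CPM, the UMIs of a gene in every 1000000 UMIs of the summed members of a library. The genes of the rule are given as a description, since they chose the cells. Upk3b, an uroplakin of the mesothelial surface, stood at 859 and 888 CPM in the uterus libraries, and Lrrn4, a membrane protein of mesothelium, at 223 and 180.4 CPM. Krt19, a keratin of simple epithelia, stood at 1069 and 981 CPM, Msln (mesothelin) at 351 and 324 CPM, Upk1b at 268 and 217 CPM and Lgals7 (galectin 7) at 247 and 137 CPM.

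Mesothelial genes that the rule did not use were high in members as well. Wt1, a zinc finger transcription factor of coelomic epithelium, was at 451 and 426 CPM and was detected in 100% and 97.9% of members. Thinned to 3000 UMIs per cell, with shallower cells left out, 77.2% and 72.9% of members and 42.3% and 36.4% of uterine stromal cells held a Wt1 UMI. The keratins Krt7 and Krt8 were at 349 and 281 and at 358 and 327 CPM, against 0.731 and 0.793 and 7.78 and 9.91 CPM in stroma. Podxl, a sialomucin of the apical surface, was at 521 and 509.6 CPM in members and 0.817 and 0.872 CPM in stroma, and Bnc1, a zinc finger protein of epithelia, at 90.7 and 76.4 CPM and 0.258 and 0.159 CPM. Gata6, a transcription factor of mesodermal tissues, was at 319.6 and 284 CPM, whereas its relative Gata4 was at 1.66 and 3.82 CPM, which is 2 and 4 UMIs in all members of a library.

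The 25 genes that stood highest in members against all other kept uterine cells are a description with no test, since the contrast is that of the rule. Muc16, the large surface mucin known as CA125, headed them with 199 and 220.5 CPM against 1.73 and 1.47 CPM in the other cells. Thinned to 3000 UMIs, 45.6% and 39.6% of members held a Muc16 UMI and 0% and 0% of stromal cells did. Gpm6a, a membrane glycoprotein, followed with 121 and 105 CPM against 0.818 and 1.03 CPM, then Gjb5, a gap junction connexin, with 69.1 and 54.4 CPM against 0.694 and 0.590 CPM. The complement component C3 reached 226 and 168 CPM against 1.74 and 1.83 CPM. Fxyd3, a regulator of the sodium pump, reached 876 and 915 CPM against 8.45 and 10.5 CPM, with 86.0% and 85.4% of thinned members positive and 0.189% and 0.438% of stromal cells.

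The same 25 genes held further proteins of the surface and its junctions. Crb2, an apical polarity protein, stood at 45.8 and 39.1 CPM, Lrp2, the endocytic receptor megalin, at 26.6 and 41.0 CPM, and Ildr2, a membrane receptor, at 206 and 179 CPM. Among secreted and matrix proteins were Efemp1, an elastic fibre glycoprotein, with 241 and 198 CPM, Podn, a small leucine-rich proteoglycan, with 104 and 138 CPM, the growth factor Fgf1 with 117 and 104 CPM and the complement protease C2 with 142 and 128 CPM. Sox6 and Myrf, which are transcription factors, stood at 61.6 and 71.6 and 198 and 184 CPM, and Krt14, a keratin of basal epithelial cells, at 91.6 and 74.4 CPM. Krt14 was detected in 40.4% and 41.7% of members.

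**Figure D1:**
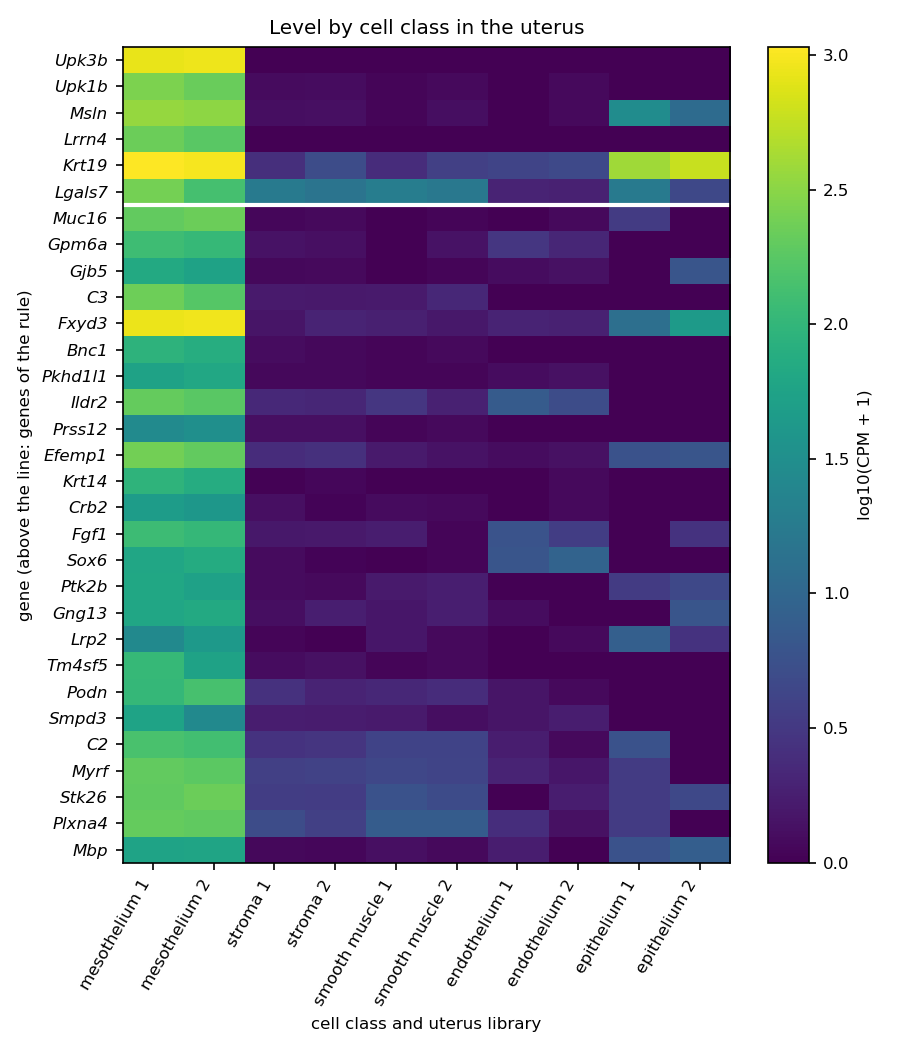
Level of the 6 genes of the rule (above the white line) and of the 25 leading genes (below it) in 5 cell classes of both uterus libraries, as log10(CPM + 1). The mesothelium columns are bright throughout, while epithelium, with 30 and 34 cells, shares Krt19 and, in part, Msln and Fxyd3. Cell classes other than mesothelium were defined with no UMI of Upk3b and Lrrn4, so their dark cells in those rows follow from the definition.

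Promoters of the leading genes are shown because this group is high in 1 cell class. Of the 25 genes, 17 matched a RefSeq promoter of build GRCm38.p6, taken from 250 bases before to 50 bases after the start. Both strands were searched for CATTCC, the core bound by TEAD factors, for GCGTGGG, bound by Wt1 and Egr factors, for TATAAA (the TATA box) and for CCAAT (the CCAAT box). CATTCC was present in 4 of 17 promoters of leading genes (23.5%) and in 14.7% of all 32851 promoters of the same length. GCGTGGG was present in 1 of 17 (5.88%) and in 5.04% of all, TATAAA in 2 of 17 (11.8%) and in 13.6% of all, and CCAAT in 2 of 17 (11.8%) and in 37.4% of all. A match describes the letters of a window and not a bound site. The promoters with CATTCC are those of Fxyd3 at chr7:31076648-31076947 on the minus strand, Gpm6a at chr8:54779184-54779483 on the plus strand, Krt14 at chr11:100205981-100206280 on the minus strand and Sox6 at chr7:116038695-116038994 on the minus strand. Each is printed from the 5′ end of the gene's own strand, with every match of the searched motifs, on either strand, in capitals.
Fxyd3: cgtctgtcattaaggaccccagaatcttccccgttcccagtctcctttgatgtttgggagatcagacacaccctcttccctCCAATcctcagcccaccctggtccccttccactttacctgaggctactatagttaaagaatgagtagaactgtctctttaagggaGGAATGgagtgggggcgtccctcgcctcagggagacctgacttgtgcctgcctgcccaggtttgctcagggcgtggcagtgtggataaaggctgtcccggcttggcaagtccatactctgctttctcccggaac
Gpm6a: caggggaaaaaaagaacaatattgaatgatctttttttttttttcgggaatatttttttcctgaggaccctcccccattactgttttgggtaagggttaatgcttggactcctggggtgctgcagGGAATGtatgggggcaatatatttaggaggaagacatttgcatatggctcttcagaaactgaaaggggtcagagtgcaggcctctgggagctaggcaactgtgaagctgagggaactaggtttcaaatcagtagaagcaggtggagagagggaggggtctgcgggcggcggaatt
Krt14: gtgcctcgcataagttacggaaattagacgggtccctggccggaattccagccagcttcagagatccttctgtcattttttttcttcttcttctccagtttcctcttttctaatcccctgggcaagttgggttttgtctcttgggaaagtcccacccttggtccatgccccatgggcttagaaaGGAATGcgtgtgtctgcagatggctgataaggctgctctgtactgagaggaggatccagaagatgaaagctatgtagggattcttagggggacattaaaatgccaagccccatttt
Sox6: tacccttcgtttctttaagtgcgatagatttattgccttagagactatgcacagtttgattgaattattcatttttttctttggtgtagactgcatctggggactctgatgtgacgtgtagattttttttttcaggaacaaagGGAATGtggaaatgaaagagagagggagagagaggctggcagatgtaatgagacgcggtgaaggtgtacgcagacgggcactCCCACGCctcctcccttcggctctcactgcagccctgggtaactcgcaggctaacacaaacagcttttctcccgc

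Markers of epithelium were near 0 in members, while those of stroma and smooth muscle were not. Of 7 epithelial markers other than Epcam, which the rule set to 0, 3 and 4 had no UMI, and their summed level was 7.49 and 4.77 CPM, against 645 and 1141 CPM in uterine epithelium. That epithelium class held only 30 and 34 cells, with medians of 11022.5 and 3535.5 UMIs. The classes used for reference were themselves defined with some of their markers. The defining stromal gene Pdgfra, the receptor of PDGF-A, was at 26.6 and 21.0 CPM in members and 208 and 187 CPM in stroma, and Lum (lumican) at 6.66 and 6.68 CPM and 93.0 and 103 CPM. The fibrous matrix genes Dcn, Col1a1 and Col1a2, in contrast, were at 2145 and 2083 CPM, 2902 and 2086 CPM and 2176 and 1602 CPM in members, above the 585 and 582 CPM, 1087 and 1001 CPM and 732 and 657 CPM of stroma. The 7 smooth muscle markers summed to 1433 and 1314 CPM in uterine members, 818 and 811 CPM in oviduct mesothelium and 6608 and 6683 CPM in uterine smooth muscle. Most of that sum was Tagln (transgelin), an actin-binding protein, with 1062 and 995 CPM in uterine and 534 and 438 CPM in oviduct mesothelium (1.05 ± 0.13 log2, uterus minus oviduct, edgeR adjusted p = 1.54e-04). Acta2 (smooth muscle actin) was at 194 and 161 and 148 and 176 CPM, and the defining muscle myosin Myh11 at 4.99 and 0.954 CPM in members against 236 and 212 CPM in uterine smooth muscle. The 6 pericyte markers summed to 76.6 and 99.3 CPM, of which Kcnj8, a potassium channel, made up 48.3 and 70.6 CPM, against 1908 and 1783 CPM in uterine pericytes.

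RNA from outside the cell, bounded from haemoglobin UMIs, made up at most 0.278% and 0.362% of the uterine members' UMIs and at most 4.11% and 4.43% of those of the oviduct cells. The bound holds only if barcodes of 10 to 100 UMIs represent that RNA. That bound moved with the organ. With the estimate subtracted, 645 genes were called, 264 higher and 381 lower, beside 267 and 378 without the subtraction. Among named genes Aldh1a1, Foxl2, Col6a3 and Wnt16 no longer passed after the subtraction. Equal totals do not show that the same genes passed, and the part of outside RNA in the organ differences was not tested.

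Kdr, the VEGF receptor known from endothelium, was at 195 and 198 CPM in members. With the other 5 endothelial markers, leaving out Pecam1, which the rule set to 0, it summed to 206 and 208 CPM, and Cdh5 (VE-cadherin) stood at 1.66 and 0 CPM against 763 and 725 CPM in uterine endothelium. Thinned to 3000 UMIs, 43.9% and 39.6% of members and 2.27% and 2.25% of stromal cells held a Kdr UMI. Cd3e, a T cell receptor subunit, was at 24.97 and 48.7 CPM in members, where Ptprc, the leukocyte antigen CD45, had no UMI. Cd3e shares its position with Gm48719 on the opposite strand, and the strand setting of the counting is not given in the sources used here.

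Members made up 1.40% of the kept cells of uterus library 1 (57 of 4058, exact 95% interval 1.07 to 1.82) and 1.06% of those of library 2 (48 of 4508, 0.786 to 1.41). In the oviduct libraries the same rule took 4.62% (320 of 6920, 4.14 to 5.15) and 6.11% (357 of 5840, 5.51 to 6.76). Both uterine shares lay below both oviduct shares, with means of 1.23% ± 0.240 and 5.37% ± 1.05 (SD, n = 2 libraries each) and a difference of -4.13 percentage points. An exact permutation test of 2 against 2 libraries gave p = 0.333, the smallest it can give. With every cell of at least 3000 UMIs thinned to that number before the rule was applied, which left out 415 and 540 uterine and 533 and 704 oviduct cells, the shares were 1.51% and 1.21% in the uterus and 6.12% and 7.32% in the oviduct. Thinning also removes Epcam and Pecam1 UMIs, so a cell that the main rule left out can become a member. Members then numbered 55 and 48 in the uterus and 391 and 376 in the oviduct, and the part of such cells was not tested. These are shares of recovered cells, and the share in the tissue was not measured.

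Cycling was read from 9 cell cycle genes in members thinned to 3000 UMIs. At least 2 of them were detected in 6 of 57 members (10.5%, exact 95% interval 3.96 to 21.5) and in 10 of 48 (20.8%, 10.5 to 35.0). In uterine stroma the shares were 18.1% and 22.9%, in smooth muscle 21.2% and 24.5%, and in epithelium 57.7% and 47.4%. The epithelial shares rest on 15 of 26 and 9 of 19 cells, with exact 95% intervals of 36.9 to 76.6 and 24.4 to 71.1. The oviduct mesothelium stood at 18.7% and 18.9%, between the 2 uterine libraries. The organ means of 15.7% ± 7.29 and 18.8% ± 0.12 did not differ beyond their spread (difference -3.11 points, exact permutation p = 1), and at 57 and 48 cells the intervals leave room for a difference in either direction.

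**Figure D2:**
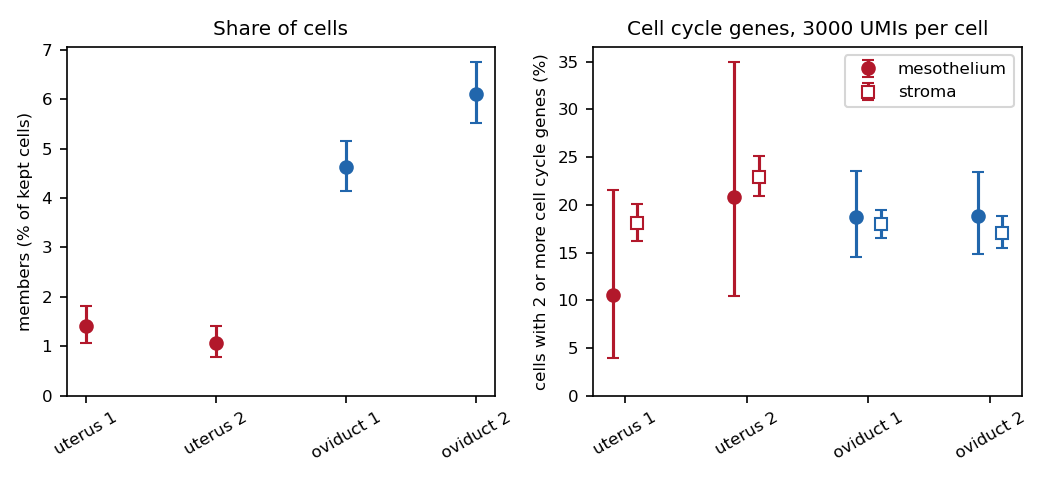
Left, members as a percentage of kept cells in each library, with exact 95% binomial intervals, which cover counting error only. Right, percentage of cells with at least 2 of 9 cell cycle genes after thinning to 3000 UMIs, for mesothelium (filled) and stroma (open). Both uterine shares lie near 1% on the left, and the uterine intervals on the right are wide.

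Uterine members were then set against oviduct mesothelium, which asks how the covering of the organ differs between segments of the duct. Counts were summed per library and tested with edgeR's quasi-likelihood test, with p-values adjusted over all genes by Benjamini and Hochberg, and log2 differences are uterus minus oviduct with their standard error (SE). Of 11934 genes tested, 645 (5.4%) passed an adjusted p of 0.05, 267 (2.24%) higher and 378 (3.17%) lower in the uterus. Counts of genes in each list below are to be read beside these shares of all genes, which are not repeated for every list. Uterine and oviduct libraries stood apart, with no overlap, for 47.8% of all tested genes. With DESeq2's size factors in place of edgeR's scaling, the counts of each list given below for this comparison were equal, except that 1 Wnt gene in place of 2 was lower. The oviduct sums rest on 6558348 and 6268972 UMIs, and the uterine sums are smaller.

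Of 28 tested mesothelial markers outside the rule, 2 were higher and 2 lower in the uterus, beside 5.4% of all genes that passed in either direction, with a median log2 difference of 0.0025, against -0.00032 over all genes. Without oviduct library 2, 4 were higher and 3 lower. Wt1 differed by -0.09 ± 0.13 (SE), Bnc1 by -0.11 ± 0.15, Krt8 by -0.08 ± 0.13 and Muc16 by 0.40 ± 0.15, with adjusted p-values of 0.792, 0.795, 0.833 and 0.153. The markers that passed were C3, described below, Sulf1, a sulfatase that edits heparan sulfate, Krt18 and Cldn15. Sulf1 was at 388 and 402 CPM in the uterus and 238 and 255 CPM in the oviduct (0.64 ± 0.13, adjusted p = 0.00582), and Krt18, a keratin of simple epithelia, at 279.7 and 294 and 475 and 457 CPM (-0.74 ± 0.13, adjusted p = 0.00231). Cldn15, a pore-forming claudin, was at 69.9 and 56.3 and 114 and 93.0 CPM (-0.74 ± 0.17, adjusted p = 0.0158), a call lost with DESeq2, with no filter, with thinned cells and without uterus library 2.

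The largest increases in the uterus among genes that averaged 20 CPM or more were led by Hoxd11, a posterior homeobox gene, with 198 and 196 CPM in the uterus and 22.6 and 10.4 CPM in the oviduct (3.53 ± 0.24 SE, edgeR adjusted p = 7.56e-07). Car3, a cytosolic carbonic anhydrase, was at 58.3 and 37.2 CPM in the uterus and 7.17 and 3.03 CPM in the oviduct (3.19 ± 0.33, adjusted p = 2.28e-05). The 12 largest in each direction were named only among genes whose uterine and oviduct libraries did not overlap. Tcf21, a basic helix-loop-helix factor of organ mesenchyme, was at 173 and 175 CPM against 32.0 and 17.5 CPM (2.77 ± 0.21, adjusted p = 1.75e-06). It was detected in 33.3% and 35.4% of thinned uterine members and 8.71% and 6.49% of thinned oviduct mesothelial cells, and in 37.5% and 37.6% of uterine stromal cells.

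Adhesion, guidance and matrix genes followed. Alcam, a cell adhesion molecule, stood at 381 and 371 CPM in the uterus and 54.6 and 64.1 CPM in the oviduct (2.63 ± 0.14, adjusted p = 6.85e-08). Sema3d, a secreted semaphorin that steers migrating cells, stood at 181 and 149 and 30.6 and 26.8 CPM (2.48 ± 0.16, adjusted p = 3.83e-07). Ltbp2, a microfibril protein, stood at 89.1 and 73.5 and 12.8 and 8.77 CPM (2.87 ± 0.21, adjusted p = 1.23e-06). In uterine stroma Alcam was at 160.0 and 141 CPM, Sema3d at 29.3 and 27.4 CPM and Ltbp2 at 8.82 and 7.49 CPM. Rspo3, an R-spondin that potentiates Wnt signalling, rose by 2.02 ± 0.17 to 399 and 441 CPM from 120.5 and 81.7 CPM (adjusted p = 3.87e-06), and C3 by 2.16 ± 0.21 to 226 and 168 CPM from 31.3 and 55.2 CPM (adjusted p = 1.66e-05). Hmga2, a chromatin protein of growing tissue, and Lbh, a transcription cofactor, rose by 2.20 ± 0.20 and 2.19 ± 0.25. The remaining 2 of the 12 were the homeobox genes Hoxd10 and Hoxa10.

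Among genes of this level, those lower in the uterine members were led by Enpp2, which encodes autotaxin, the enzyme that makes lysophosphatidic acid. Enpp2 was at 4.99 and 3.82 CPM in the uterus, 6 and 4 UMIs, and at 88.6 and 71.9 CPM in the oviduct (-4.20 ± 0.30, adjusted p = 7.56e-07). Aqp5, a water channel, was at 5.83 and 0.954 CPM (7 UMIs and 1 UMI) and 32.8 and 48.0 CPM (-3.53 ± 0.43, adjusted p = 9.64e-05). Nrgn, a calmodulin-binding protein named for its role in neurons, was the most counted of the group, with 129.8 and 102 CPM in the uterus and 529 and 418 CPM in the oviduct (-2.06 ± 0.17, adjusted p = 2.30e-06).

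Secreted signals and enzymes stood beside them. Nppc, the precursor of C-type natriuretic peptide, was at 22.5 and 10.5 CPM in the uterus and 94.1 and 132 CPM in the oviduct (-2.78 ± 0.27, adjusted p = 1.12e-05), and Ins2, an insulin gene, at 9.16 and 4.77 and 57.8 and 46.4 CPM (-2.91 ± 0.30, adjusted p = 2.28e-05). Ptgds, a prostaglandin D2 synthase, was at 7.49 and 4.77 and 47.1 and 37.3 CPM (-2.79 ± 0.31, adjusted p = 4.10e-05), and Gstm1, a glutathione transferase, at 20.8 and 30.5 and 136 and 108 CPM (-2.30 ± 0.21, adjusted p = 8.95e-06). Tmem158, Ltbp1, Krt15, Cmbl and Bace2 completed the 12, with log2 differences of -3.03, -2.21, -2.18, -2.13 and -2.02. Aqp5, Cmbl and Lbh no longer passed when each cell was thinned to 3000 UMIs, an alternative chosen after seeing the data; the other 21 of these 24 genes passed under every alternative run that could test them.

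**Figure D3:**
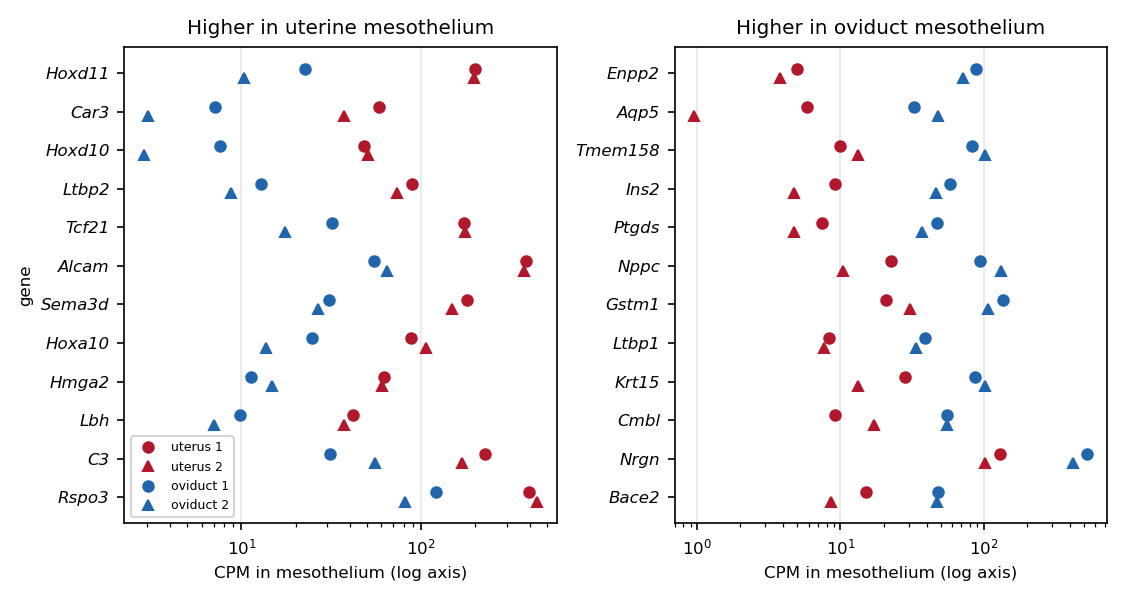
CPM of summed mesothelial cells in each of the 4 libraries (log axis) for the 12 genes with the largest increase (left) and the 12 with the largest decrease (right) in the uterus. Circles are library 1 and triangles library 2; red is uterus and blue oviduct. Genes were named only where the organs did not overlap, so the separation of the colours follows from the choice, while the distance between them ranges from the -4.20 of Enpp2 to the 3.53 of Hoxd11 on the log2 scale.

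Homeobox genes of the Hox clusters, which set position along the body axis and in the female tract order oviduct, uterus, cervix and vagina, were tested as a list. Of 25 Hox genes tested in mesothelium, 8 were higher and 3 lower in the uterus, a median log2 difference of 0.88 against -0.00032 over all genes. Hoxa11, which is required in the uterus, was at 30.8 and 30.5 CPM in uterine and 0.915 and 0.638 CPM in oviduct mesothelium (5.20 ± 0.38, adjusted p = 1.17e-06). Hoxa10, its neighbour, was at 87.4 and 107 and 24.7 and 13.7 CPM (2.29 ± 0.24, adjusted p = 2.28e-05). In the Hoxd cluster, 3 of 5 tested genes were higher, namely Hoxd11, Hoxd10 with 48.3 and 50.6 against 7.62 and 2.87 CPM (3.18 ± 0.32, adjusted p = 1.99e-05) and Hoxd9 with 46.6 and 48.7 against 18.4 and 11.01 CPM (1.65 ± 0.25, adjusted p = 6.67e-04).

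Another 3 of the higher genes belonged to the Hoxb cluster, and all 3 lower ones to the Hoxc cluster. Hoxb9 was at 5.83 and 17.2 CPM in the uterus and 0.915 and 2.23 CPM in the oviduct (2.78 ± 0.57, adjusted p = 0.00772), and the 2 uterine values lay far apart. Hoxb3 and Hoxb7 differed by 1.44 ± 0.37 and 1.41 ± 0.39. Hoxc8 differed by -1.001 ± 0.15, from 167 and 155 CPM in the oviduct to 89.9 and 74.4 CPM in the uterus (adjusted p = 5.69e-04), Hoxc9 differed by -0.82 ± 0.20 and Hoxc4 by -0.79 ± 0.21. Hoxc5 shares strand and position with Hoxc8 and Hoxc9 in the annotation, so counts of these genes may be split. With DESeq2 1 Hoxb gene was higher and 1 Hoxc gene lower. Of the Hoxb genes, 0 of 3 passed without oviduct library 1, 1 of 3 without oviduct library 2, 1 of 7 without uterus library 1 and 0 of 9 with no filter on low counts. Of 6 Hoxc genes, 1 passed without uterus library 2, and Hoxc4 and Hoxc9 lost their calls in 7 and 4 alternatives. The counts of Hox genes higher and lower ranged over the alternatives from 3 and 1 with thinned cells to 11 and 4 with the replicate block, and the increase of Hoxa10, Hoxa11 and Hoxd9 to Hoxd11 is shown with its error in the plot of Hox genes.

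**Figure D4:**
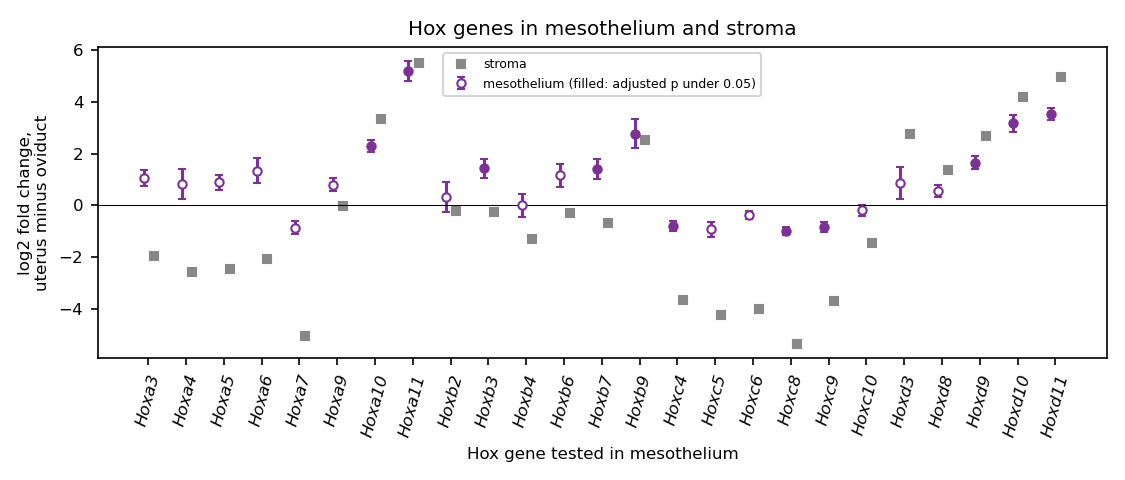
Log2 difference, uterus minus oviduct, for each Hox gene tested in mesothelium (purple, with SE; filled where the adjusted p is under 0.05) and in stroma (grey squares). Hoxa10, Hoxa11 and Hoxd9 to Hoxd11 lie above 0 in both classes, while the Hoxc genes lie far below 0 in stroma and between 0 and -1.0 in mesothelium. Of the 8 Hoxa genes tested in mesothelium, 7 passed in stroma, 5 of them lower in the uterus.

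The promoters of Hoxd10 and Hoxd11 are shown because these adjacent genes rose together. In RefSeq on GRCm38.p6, Hoxd11 lies at chr2:74679308-74679607 and Hoxd10 at chr2:74691641-74691940 for the same 300-base window, both on the plus strand. The Hoxd10 window held CATTCC and CCAAT (capitals, on either strand), and none of the 4 searched motifs occurred in the Hoxd11 window. Of the 10 matched promoters among the 12 genes with the largest increase, 1 held CATTCC, 2 held TATAAA, 0 held GCGTGGG and 3 held CCAAT. Of the 7 matched among the 12 with the largest decrease, 2, 1, 1 and 4 did, against 14.7%, 13.6%, 5.04% and 37.4% of all promoters.
Hoxd11: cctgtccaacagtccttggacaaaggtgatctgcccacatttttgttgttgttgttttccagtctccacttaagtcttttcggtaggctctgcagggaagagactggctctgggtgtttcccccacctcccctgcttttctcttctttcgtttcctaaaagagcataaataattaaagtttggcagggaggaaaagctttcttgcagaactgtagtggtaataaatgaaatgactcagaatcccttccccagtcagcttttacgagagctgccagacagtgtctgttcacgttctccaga
Hoxd10: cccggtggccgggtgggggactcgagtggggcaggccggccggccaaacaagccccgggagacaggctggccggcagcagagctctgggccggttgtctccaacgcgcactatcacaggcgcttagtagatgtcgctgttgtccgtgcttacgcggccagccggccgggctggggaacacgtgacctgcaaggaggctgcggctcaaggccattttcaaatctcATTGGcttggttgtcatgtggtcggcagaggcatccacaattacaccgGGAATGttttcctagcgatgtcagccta

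Among 33 other regional transcription factors tested, 4 were higher and 7 lower in the uterus (median -0.15). Without either uterus library 3 were higher and 4 lower, and with DESeq2 4 and 2. The 8 ovary markers, among them Foxl2, which is 1 of the 7, summed to 16.6 and 19.1 CPM in uterine and 30.2 and 26.6 CPM in oviduct mesothelium. Without oviduct cells that held Lhx9 or Foxl2, which left 271 and 318 of them, 4 of 29 factors were higher and 4 lower. Beside Tcf21, the higher genes held Meis2, a homeobox partner of Hox proteins, at 287 and 358 CPM against 199 and 165 CPM (0.79 ± 0.15, adjusted p = 0.00444), and Gata2, at 105 and 97.3 against 60.1 and 51.2 CPM (0.83 ± 0.16, adjusted p = 0.00383). Tbx18, a T-box factor of coelomic linings, was at 9.16 and 3.82 CPM, 11 and 4 UMIs from 3.51% and 4.17% of members, and at 0 and 0.479 CPM in the oviduct, a call lost without either oviduct library. Nr2f1, a nuclear receptor, was at 0.832 and 3.82 CPM (1 UMI and 4 UMIs) against 27.9 and 34.3 CPM in the oviduct (-3.82 ± 0.43, adjusted p = 4.80e-05). Pax8, a paired-box factor of Müllerian epithelium, had no UMI in uterine members and was at 13.4 and 11.6 CPM in oviduct mesothelium, at least 9.40-fold lower in the uterus against a floor of 3 UMIs over both uterine libraries (adjusted p = 3.35e-04). The 6 epithelial markers other than Epcam and Pax8 summed to 11.1 and 16.1 CPM in oviduct mesothelium and to 7.49 and 4.77 CPM in uterine members; their part in the Pax8 difference was not tested.

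Genes of retinoid handling, by which cells make and read retinoic acid, held 7 that were lower and 1 that was higher in the uterus, of 17 tested (median -0.34). With 1 library left out the median ranged from -0.65 without uterus library 1 to -0.34 without oviduct library 1. Aldh1a2, a retinoic acid synthase, was at 295 and 295 CPM in the uterus and 417 and 386 CPM in the oviduct (-0.48 ± 0.13, adjusted p = 0.041). Rbp4, a retinol carrier, was at 209.8 and 213 against 381 and 375 CPM (-0.88 ± 0.13, adjusted p = 5.68e-04). Stra6, the retinol uptake receptor, differed by -1.28 ± 0.25, the receptor Rarb by -1.10 ± 0.29, Dhrs3, which returns retinal to retinol, by -1.07 ± 0.29, and Aldh1a1 by -1.36 ± 0.36 on 6 and 7 uterine UMIs. Rdh10, which makes retinal, was the 1 higher gene, with 104 and 103 against 60.2 and 69.4 CPM (0.64 ± 0.15, adjusted p = 0.0168). The calls of Aldh1a2, Aldh1a1, Rarb and Rdh10 were lost in 7, 8, 6 and 4 alternatives. With DESeq2, 3 of 17 were lower and none higher; without uterus library 1, 3 of 18 were lower and 1 higher, and Aldh1a2, Aldh1a1, Rarb and Rdh10 did not pass.

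Of 24 tested genes of the fibrous matrix, 8 were higher and 3 lower (median 0.32). With 1 library left out the median ranged from 0.12 without oviduct library 2 to 0.36 without oviduct library 1. Eln (elastin) was at 1222 and 1098 CPM in the uterus and 654 and 585 CPM in the oviduct (0.87 ± 0.13, adjusted p = 4.69e-04), the microfibril gene Fbn2 at 169 and 105 and 50.5 and 45.5 CPM (1.48 ± 0.18, adjusted p = 1.13e-04) and the proteoglycan Bgn (biglycan) at 343 and 355 and 146 and 116 CPM (1.38 ± 0.15, adjusted p = 2.78e-05). Col1a1, Col1a2 and Col5a2, fibril collagens, differed by 0.67 ± 0.14, 0.78 ± 0.14 and 0.88 ± 0.13, and Fmod and Mfap5 by 0.53 ± 0.15 and 1.27 ± 0.18. The 3 lower genes were the chains of collagen VI: Col6a1 was at 530.2 and 509 and 795 and 869 CPM (-0.71 ± 0.12, adjusted p = 0.0023), Col6a2 differed by -1.03 ± 0.13 and Col6a3 by -0.71 ± 0.18, the last of which lost its call in 10 alternatives. Without uterus library 1, 5 of 26 genes of the list were higher and 2 lower. The summed level of 8 stromal markers, 5 of which (Col1a1, Col1a2, Col3a1, Dcn and Lum) belong to the fibrous matrix list themselves, was 11429 and 9041 CPM in uterine and 7257 and 6473 CPM in oviduct mesothelium, while the 3 others, Pdgfra, Pdgfrb and Tcf21, summed to 208 and 215 CPM in uterine and 73.2 and 55.5 CPM in oviduct mesothelium. Of these Tcf21 was called higher, as given above, and Pdgfra was at 26.6 and 21.0 and 28.1 and 26.8 CPM; the part of stromal RNA in these differences was not tested.

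Of 33 tested genes of the basement membrane and its microfibrils, 8 were higher and 3 lower (median 0.09). The median was 0.27 without oviduct library 2. Without uterus library 1 the counts were 4 and 3, and without uterus library 2 they were 5 and 3 with a median of -0.11. Fn1 (fibronectin) was at 305 and 237 CPM in the uterus and 127 and 113 CPM in the oviduct (1.14 ± 0.15, adjusted p = 1.73e-04), Fras1, which anchors epithelia, at 244 and 252 and 94.99 and 113 CPM (1.22 ± 0.14, adjusted p = 5.24e-05) and Col4a4, a collagen IV chain, at 46.6 and 38.2 and 16.8 and 19.9 CPM (1.18 ± 0.21, adjusted p = 0.00247). Sparc, a collagen-binding glycoprotein, was at 5341 and 4790.0 and 3426 and 2928 CPM (0.64 ± 0.12, adjusted p = 0.00545). Lower were Col18a1, the source of endostatin, with 182 and 204 against 550.0 and 529 CPM (-1.52 ± 0.14, adjusted p = 6.98e-06), the laminin chain gene Lama2, with 5.83 and 5.73 against 21.8 and 27.0 CPM (-2.10 ± 0.33, adjusted p = 8.72e-04), and Ltbp1, a latency protein of TGF-beta, with 8.32 and 7.64 against 38.9 and 33.7 CPM. Ltbp1 and Ltbp2 thus differed in opposite directions.

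Of 33 tested junction genes, 5 were lower and 1 higher (median -0.16), and without uterus library 2 of 38 tested 3 were lower and 0 higher. The median of the junction genes was -0.05 without oviduct library 2 and -0.34 without uterus library 1. Cldn10, a claudin that forms ion pores, was at 43.3 and 29.6 CPM in the uterus and 110.1 and 115 CPM in the oviduct (-1.65 ± 0.18, adjusted p = 3.41e-05). Ocln (occludin) was at 4.99 and 6.68 and 22.9 and 22.2 CPM (-1.99 ± 0.32, adjusted p = 0.00124) and Dsp, the desmosome protein desmoplakin, at 8.32 and 7.64 and 32.2 and 30.1 CPM (-1.99 ± 0.28, adjusted p = 3.18e-04). Cdh3 (P-cadherin) was the higher gene, at 109 and 118 and 68.2 and 78.5 CPM (0.60 ± 0.15, adjusted p = 0.0236), a call that DESeq2 and the fit without uterus library 2 did not make. Of 10 tested keratins and other intermediate filament genes, Krt14 was higher (91.6 and 74.4 against 33.4 and 30.8 CPM, 1.34 ± 0.17, adjusted p = 1.53e-04), and Krt15 and Krt18 were lower; Krt7 differed by -0.04 ± 0.15. Without oviduct library 2, 4 of these genes were lower.

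Of 14 tested genes of the glycocalyx and of fluid transport, Sdc2, a heparan sulfate carrier, was higher (0.81 ± 0.13, adjusted p = 0.00159), and Sdc4 and the water channel Aqp1 were lower (-0.64 ± 0.16 and -2.93 ± 0.38). The call of Sdc4 was lost in 6 alternatives, among them without oviduct library 2 and without either uterus library. Without oviduct library 2, 3 genes of this list were higher and 1 lower. Of 18 tested genes of complement and defence, 4 were higher and 1 lower (median 0.23). The counts were 5 and 5 (median -0.05) without oviduct library 1, 7 and 1 without oviduct library 2, 3 and 3 (median -0.18) without uterus library 1, 4 and 5 without uterus library 2, 5 and 4 with the replicate block, and 2 and 1 with DESeq2, so the balance of the list rests on single libraries. Next to C3, the protease C1s1 was at 84.1 and 99.3 CPM in the uterus and 56.0 and 58.5 CPM in the oviduct (0.64 ± 0.16, adjusted p = 0.0225, lost in 5 alternatives) and the inhibitor Serping1 at 339 and 339.8 and 244 and 225 CPM (0.50 ± 0.13, adjusted p = 0.0337). The cytokine Il18 was lower, at 68.3 and 77.3 and 141 and 126 CPM (-0.92 ± 0.15, adjusted p = 0.00153). C3 was detected in 28.1% and 22.9% of thinned uterine members and 7.74% and 8.85% of thinned oviduct mesothelial cells, and in 0.126% and 0.188% of uterine stromal cells.

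Among ligands and receptors of the Wnt pathway, 43 genes were tested, and 6 were higher and 2 lower in the uterus (median -0.01). The counts were 3 and 3 without uterus library 2, 5 and 1 without uterus library 1, 5 and 4 without oviduct library 2, 3 and 0 with DESeq2, and 8 and 6 with the replicate block. Beside Rspo3, the ligand Wnt5a was at 201 and 216 CPM in the uterus and 134 and 137 CPM in the oviduct (0.59 ± 0.13, adjusted p = 0.0147, lost without uterus library 2). The receptors Fzd1 and Fzd7 were at 17.5 and 13.4 against 4.57 and 4.31 CPM (1.76 ± 0.35, adjusted p = 0.00565, lost without uterus library 1) and at 26.6 and 28.6 against 11.7 and 13.4 CPM (1.10 ± 0.24, adjusted p = 0.0115), and the inhibitors Notum and Dkk2 differed by 0.98 ± 0.26 and 1.69 ± 0.42. The call of Dkk2 was lost with DESeq2, with no filter and without any one of the 4 libraries. Wnt4 and Wnt16 were lower, by -0.56 ± 0.16 and, on 0 and 3 uterine UMIs, by -2.97 ± 0.67, and both calls were lost without uterus library 1. Rspo1, which acts with Wnt4 in the early gonad, was at 389 and 355 and 354 and 297 CPM and did not pass (0.16 ± 0.14, adjusted p = 0.639).

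Of 38 tested genes of BMP and TGF-beta signalling, 4 were higher and 3 lower (median 0.12), and over the fits without 1 library 4 to 6 were higher and 2 to 5 lower. Among the higher ones the ligand Bmp2 was at 77.4 and 70.6 CPM in the uterus and 29.0 and 40.5 CPM in the oviduct (1.06 ± 0.19, adjusted p = 0.00288), the signal transducer Smad9 at 29.1 and 23.9 and 3.81 and 5.74 CPM (2.44 ± 0.31, adjusted p = 1.36e-04), and the BMP target genes Id2 at 368 and 381 and 126 and 142 CPM (1.45 ± 0.13, adjusted p = 8.80e-06) and Id3 at 1445 and 1456 and 734 and 703 CPM (0.98 ± 0.12, adjusted p = 1.10e-04). The lower ones were Tgfbi, a TGF-beta induced matrix protein (-1.24 ± 0.16, adjusted p = 1.24e-04), the co-receptor Tgfbr3 (-0.77 ± 0.19) and, on 2 UMIs in each uterine library, Msx2 (-2.48 ± 0.52), also a BMP target. The call of Tgfbr3 was lost without uterus library 2 and that of Msx2 without oviduct library 2, and both with DESeq2.

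Growth factor genes held 2 large differences. Fgf2, a fibroblast growth factor, was at 112 and 147 CPM in the uterus and 30.2 and 32.1 CPM in the oviduct (2.01 ± 0.17, adjusted p = 3.13e-06), and Igf1, the circulating and local growth factor, was lower, at 163 and 168 and 591 and 686 CPM (-1.98 ± 0.14, adjusted p = 7.56e-07). Fgf2 shares its position with Nudt6 on the opposite strand. The receptor gene Fgfr2, given next, shares strand and position in the annotation with several genes, among them Ate1, Nsmce4a and Ctbp2, so its counts may be split. Of 16 tested Fgf genes, Fgfr2 was also higher (1.58 ± 0.26, adjusted p = 0.00134), and Fgf10 had no UMI in uterine members against 2.90 and 4.31 CPM in the oviduct, at least 2.70-fold lower, a call lost without either uterus library. Of 14 tested Igf genes, the binding protein Igfbp3 and the receptor Igf1r were higher (1.05 ± 0.17 and 0.70 ± 0.15) and Igfbp4 was lower (-0.68 ± 0.13, lost without uterus library 1). Without oviduct library 2, 4 Igf genes were lower. Igf2 differed by -0.21 ± 0.20 (adjusted p = 0.679). Of 10 tested Notch genes the target Hes1 was lower (-0.76 ± 0.17, adjusted p = 0.0165, lost without uterus library 2), and of 9 hedgehog genes none passed edgeR's or DESeq2's test.

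Of 37 tested guidance genes, 5 were higher and 3 lower (median -0.15). The median was 0.0099 without oviduct library 2 and stayed negative without each of the other libraries. The counts were 4 and 5 without oviduct library 1, 5 and 6 without uterus library 2, and 6 and 6 with the replicate block. Sema3a and Sema3c, like Sema3d secreted class 3 semaphorins, were at 191 and 188 against 89.5 and 82.5 CPM (1.11 ± 0.13, adjusted p = 9.64e-05) and at 386 and 339 against 142 and 159 CPM (1.24 ± 0.13, adjusted p = 3.27e-05). Their receptor gene Plxna2 differed by 1.54 ± 0.27. Epha3, an ephrin receptor, and the ligand Slit2 were lower, at 4.99 and 1.91 against 35.2 and 36.2 CPM (-3.35 ± 0.35, adjusted p = 2.28e-05) and at 55.8 and 91.6 against 134 and 164 CPM (-1.06 ± 0.19, adjusted p = 0.003). Kdr, the VEGF receptor described above, was higher too, with 195 and 198 against 68.0 and 72.6 CPM (1.45 ± 0.13, adjusted p = 8.95e-06).

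Receptors for the hormones of the tract were low or did not pass, with 2 exceptions. Esr1, the oestrogen receptor, was at 176 and 163 CPM in the uterus and 190.1 and 238 CPM in the oviduct (-0.37 ± 0.15, adjusted p = 0.187). Pgr, the progesterone receptor, was at 9.99 and 4.77 CPM, 12 and 5 UMIs, and 1.37 and 0.798 CPM (2.71 ± 0.58, adjusted p = 0.0103). Its call was lost with DESeq2, with no filter on low counts, without uterus library 1 and without either oviduct library. Amhr2, the receptor of the hormone that regresses the Müllerian duct in males, was lower, at 25.8 and 35.3 and 87.8 and 70.7 CPM (-1.42 ± 0.21, adjusted p = 4.69e-04).

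Of 23 tested genes of the immediate early and stress responses, which dissociation can also induce, 3 were higher and 4 lower (median -0.34). The higher genes were Hspa1a, Hspa1b and Gadd45g. The calls of Hspa1a and Hspa1b were lost with no filter on low counts and with thinned cells, and that of Hspa1b also with DESeq2. The metallothioneins Mt1 and Mt2, which bind zinc, were at 103 and 54.4 against 206 and 261 CPM (-1.59 ± 0.21, adjusted p = 1.98e-04) and at 41.6 and 53.4 against 120.0 and 159 CPM (-1.59 ± 0.19, adjusted p = 6.70e-05). Mt3 had no UMI in uterine members and was at 26.4 and 26.5 CPM in the oviduct, at least 19.8-fold lower in the uterus (adjusted p = 1.25e-05). The early factors Fos, Jun and Egr1 did not pass, and library 2 of each organ stood above library 1 for Fos (2127 and 2761 CPM in the uterus, 2443 and 3589 CPM in the oviduct). Without oviduct library 1, 2 of the 23 were higher and 13 lower (median -0.59), without oviduct library 2, 6 and 4 (median 0.13), without uterus library 1, 4 and 3 (median 0.02), and without uterus library 2, 2 and 8 (median -0.55), so the direction of the list rests on single libraries. Of 27 cell cycle genes tested, Ccnd2 (cyclin D2) was higher (0.74 ± 0.13, adjusted p = 0.0028), and the inhibitor Cdkn1a (p21) and the mitotic gene Cenpf were lower (-1.22 ± 0.18 and -0.63 ± 0.16). These are 1 and 2 genes of 27, beside 2.24% and 3.17% of all genes. The call of Cenpf was lost in 6 alternatives, among them DESeq2 and without either uterus library.

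Whether mesothelium differed between the organs in another way than the tissue below it was tested against Pdgfra-positive stroma from the same libraries, 3235 cells in the uterus and 4908 in the oviduct. The organ difference in mesothelium minus that in stroma passed an adjusted p of 0.05 in 2102 of 14981 genes (14.0%), 1025 (6.84%) further towards the uterus in mesothelium and 1077 (7.19%) further towards the oviduct. DESeq2 called 1116, 686 and 430, and edgeR without uterus library 1 called 1042. In stroma alone 5905 of 14699 genes (40.2%) passed, with far more UMIs behind them. Of the 12 genes with the largest increase in uterine mesothelium, 7 were also higher and 4 lower in uterine stroma. Of the 12 with the largest decrease, 7 were also lower in stroma. RNA of mesothelial cells in the stromal sums was bounded from Upk1b, Msln, Krt19 and Lgals7, since stromal cells were defined with no UMI of Upk3b and Lrrn4. It was at most 1.61%, 1.48%, 0.944% and 1.11% of UMIs in oviduct libraries 1 and 2 and uterus libraries 1 and 2.

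Genes of the Hoxa and Hoxc clusters differed between the classes. Hoxc8 was at 4.82 and 3.81 CPM in uterine stroma and 181 and 183 CPM in oviduct stroma, and at 89.9 and 74.4 and 167 and 155 CPM in mesothelium. The organ difference was -5.36 ± 0.12 in stroma and -1.001 ± 0.15 in mesothelium, and their difference was 4.28 ± 0.16 (edgeR adjusted p = 4.99e-12). Thinned to 3000 UMIs, 15.8% and 16.7% of uterine members and 1.45% and 1.25% of uterine stromal cells held a Hoxc8 UMI. Of 7 Hoxc genes tested, 6 passed in the same direction as Hoxc8, also with DESeq2 and without either oviduct library; 5 passed without uterus library 1. Of 9 Hoxa genes tested, 7 stood further towards the uterus in mesothelium and 1 further towards the oviduct, and 4 and 1 without uterus library 1. Hoxa7 was at 2.37 and 2.46 CPM in uterine and 85.1 and 79.7 CPM in oviduct stroma, against 16.6 and 17.2 and 33.5 and 26.6 CPM in mesothelium (4.11 ± 0.34, adjusted p = 6.97e-08).

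In the Hoxd cluster the difference ran the other way, and 5 of 9 tested genes passed. Hoxd11 rose by 4.97 ± 0.15 in stroma, to 332 and 306 CPM from 8.64 and 12.7 CPM, and by 3.53 ± 0.24 in mesothelium (-1.51 ± 0.28, adjusted p = 8.85e-04). With DESeq2 1 of 9 Hoxd genes passed, and without oviduct library 1 and without uterus library 1 2 of 9 and 2 of 8 did. Hoxa10 rose by 3.35 ± 0.12 in stroma and 2.29 ± 0.24 in mesothelium (-1.11 ± 0.17, adjusted p = 1.18e-04), and Hoxa11 by 5.53 ± 0.11 and 5.20 ± 0.38, which did not differ past the threshold (-0.34 ± 0.48, adjusted p = 0.745).

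Other genes whose organ difference was large in stroma and small in mesothelium included signalling modulators. Fst (follistatin), an activin inhibitor, was at 0.903 and 1.71 CPM in uterine and 98.7 and 111 CPM in oviduct stroma, and at 24.97 and 28.6 and 13.4 and 18.7 CPM in mesothelium (6.92 ± 0.35, adjusted p = 1.03e-10). Sp5, a transcription factor induced by Wnt signals, had no UMI in uterine stroma, at least 31.8-fold below the 1.51 and 2.43 CPM of oviduct stroma against a floor of 3 UMIs over both libraries, and was at 19.1 and 38.2 and 48.3 and 39.1 CPM in mesothelium. Its fitted difference of 7.18 ± 1.04 rests on that 0 and is no bound (adjusted p = 8.66e-05).

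Efemp1 was at 1.42 and 1.63 CPM in uterine stroma and 31.5 and 32.7 CPM in oviduct stroma, and at 241 and 198 and 258 and 250.3 CPM in mesothelium (4.02 ± 0.17, adjusted p = 1.55e-11). Hpgd, which breaks down prostaglandins, and Anxa1 (annexin A1) shared this pattern, with differences of 3.81 ± 0.26 and 3.62 ± 0.17 (adjusted p = 4.99e-09 and 3.56e-11). C3, higher in uterine mesothelium, was at 0.645 and 0.595 CPM in uterine and 1.80 and 1.88 CPM in oviduct stroma (3.67 ± 0.32, adjusted p = 1.52e-07).

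Genes with the opposite sign were higher in uterine than in oviduct stroma, with 1 exception, and their organ difference was smaller or opposite in mesothelium. Serpinb1a, a protease inhibitor, was at 95.5 and 98.9 CPM in uterine and 11.0001 and 10.998 CPM in oviduct stroma, while mesothelium of both organs held 244 and 232 and 249.8 and 241 CPM (-3.33 ± 0.12, adjusted p = 1.94e-12). Ntm (neurotrimin), an adhesion molecule, was at 67.7 and 62.4 and 13.1 and 13.5 CPM in stroma and at 15.8 and 16.2 and 62.5 and 54.7 CPM in mesothelium, so that the organs stood in opposite order in the 2 classes (-4.32 ± 0.20, adjusted p = 2.99e-11). Ccnd1 (cyclin D1) was at 122 and 119 and 33.7 and 32.2 CPM in stroma and at 16.6 and 40.1 and 50.2 and 46.7 CPM in mesothelium (-2.83 ± 0.22, adjusted p = 2.69e-08). Tmem158, in contrast, was near equal in stroma of both organs, at 34.6 and 35.2 and 38.1 and 35.3 CPM, and lower in uterine mesothelium (-3.06 ± 0.25, adjusted p = 7.32e-08). Adgrf5, Map2, Asic2 and Tmem255a completed the 8 genes, with differences of -3.28, -2.85, -2.75 and -2.73.

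Lists of genes are given beside the 6.84% and 7.19% of all genes that stood further towards the uterus and towards the oviduct in mesothelium. Of 26 tested genes of the fibrous matrix, 17 stood further towards the uterus in mesothelium than in stroma and 3 further towards the oviduct. Bgn, for example, was at 282 and 297 CPM in uterine and 644 and 619.6 CPM in oviduct stroma, the reverse of its order in mesothelium (2.40 ± 0.11, adjusted p = 2.90e-11). Of 35 genes of the basement membrane, 18 stood further towards the uterus and 3 towards the oviduct, and of 42 genes of BMP and TGF-beta signalling 18 and 2, or 9 and 2 without uterus library 1. Of 18 retinoid genes, 1 and 6 did so, and 1 and 3 with DESeq2 or without uterus library 1; the 1 was Aldh1a1, at 0.516 and 0.278 CPM in uterine and 86.1 and 92.7 CPM in oviduct stroma (6.32 ± 0.66, adjusted p = 1.48e-06). Of the 28 mesothelial markers outside the rule 13 and 4 did so, which dropped to 9 and 5 once mesothelial RNA was subtracted from the stromal sums, and Bgn and the other matrix genes kept counts of 17 and 3.

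**Figure D5:**
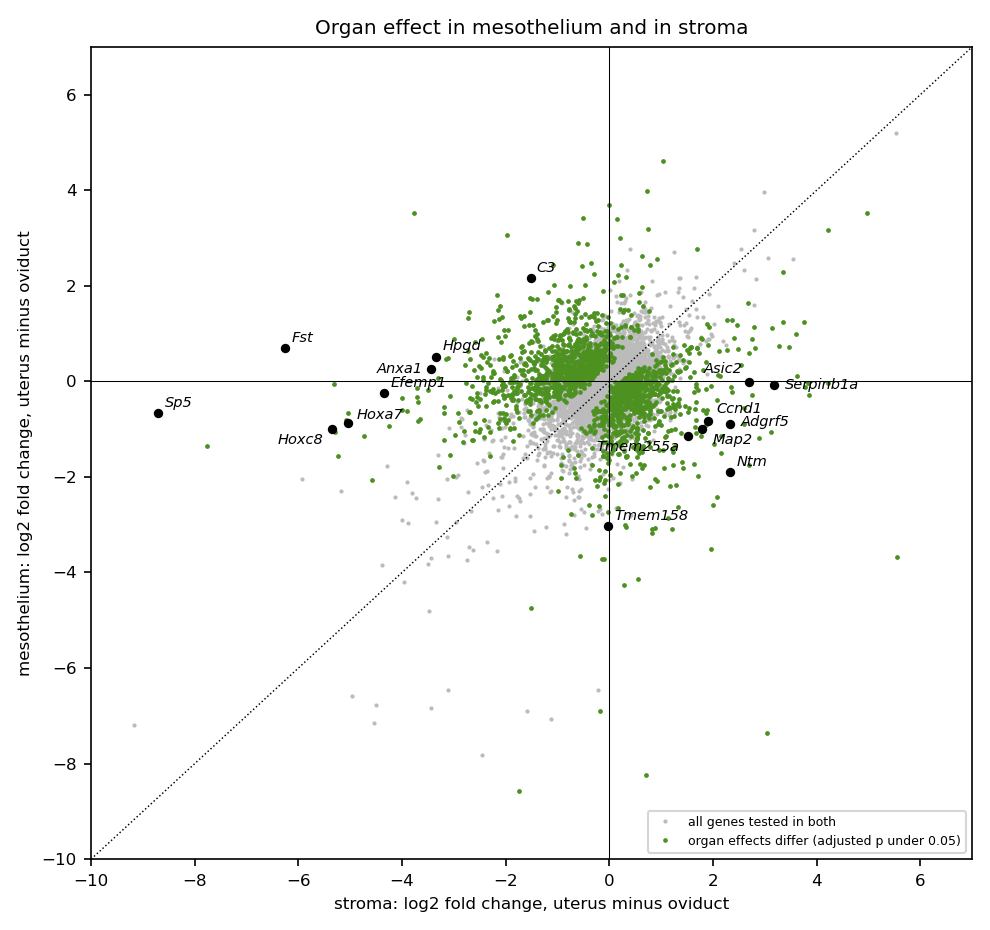
Log2 difference, uterus minus oviduct, in stroma (horizontal axis) and mesothelium (vertical axis) for every gene tested in both; the dotted line marks equal differences. Green genes passed an adjusted p of 0.05 for the difference between the classes, and black named genes are the 8 largest in each direction among genes that averaged 20 CPM or more; values below -6 on either axis come from genes at or near 0 UMIs in an organ and depend on the fit.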

How the data were processed

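Single-cell RNA was measured with the Chromium Single Cell 3' v3.1 kit in 2 oviduct and 2 uterus libraries. The authors deposited UMI counts per gene and barcode as matrices; per the file headers the filtered matrices were made with Cell Ranger 6.0.1 and the raw ones with Cell Ranger 4. Per the submitters' processing notes mm10 and Seurat 4.2.3 were used. Which annotation and strand setting served, and whether intronic reads counted, is not given in the sources used here.

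Cells came from the filtered matrices (31053 features), with at least 500 genes and at most 15% mitochondrial UMIs, and doublets were kept in the main results. Counts of the cells that met the rule were summed per library, scaled by edgeR 4.0.16 (TMM) in R 4.3.3, filtered with filterByExpr and tested with its quasi-likelihood test and Benjamini-Hochberg adjustment. The comparison with stroma had a term for each library. Shares of cells were compared with exact two-sided permutation tests in scipy 1.17.1 and their intervals cover counting error only. RNA from outside cells was bounded from haemoglobin UMIs in barcodes with 10 to 100 UMIs of the raw matrices. The scripts' test steps were tested on simulated data. Alternatives used DESeq2 1.42.0, Scrublet scores in scanpy 1.11.5, other rules, scalings and filters, and each library left out.

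Genes were named by size: the 12 largest per direction between organs and the 8 largest per direction against stroma, with a mean of at least 20 CPM, no overlap between libraries (against stroma, of the ratio of mesothelium to stroma) and an outside-RNA bound of at most 25%, the 3 largest calls per direction in each list, the 25 leading genes (detected in at least 20% of members), and 21 genes chosen whatever their result. Of these 21, Xist is not reported here, and Gata4, Gata6 and Gpm6a are given as levels only. Some called genes of the lists are counted but not reported by name here. Other called members of a list, Podxl, Cd3e, Dcn, Lum, Pdgfra, Tagln, Acta2, Myh11, Kcnj8, Cdh5, Ptprc, Fos, Jun and Egr1 were named after their values were seen. The members, the lists and the markers were chosen with earlier results of these data known.

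Both organs came from the same pools of neonates per the series' text, same-numbered libraries were taken to share a pool, and the difference between libraries 2 and 1 correlated between organs at 0.12 in mesothelium and 0.298 in stroma over 6430 genes. Replicate libraries differed beyond counting noise (chi-square per degree of freedom 1.73 in uterine and 7.63 in oviduct mesothelium).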

Additional observations from a re-analysis of the deposited data

Results flagged for a closer look

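For 16 genes the difference between uterus and oviduct was tested to differ between mesothelium and stroma and was among the largest found; the values below are the organ difference in mesothelium minus that in stroma, on the log2 scale (edgeR's quasi-likelihood test, adjusted p under 0.05 for each). Further towards the uterus in mesothelium were Sp5 with 7.18, Fst with 6.92, Hoxc8 with 4.28, Hoxa7 with 4.11, Efemp1 with 4.02, Hpgd with 3.81, C3 with 3.67 and Anxa1 with 3.62. The value of Sp5 rests on no UMI in uterine stroma and is no bound, and its call was lost with thinned cells. Further towards the oviduct in mesothelium were Ntm with -4.32, Serpinb1a with -3.33, Adgrf5 with -3.28, Tmem158 with -3.06, Map2 with -2.85, Ccnd1 with -2.83, Asic2 with -2.75 and Tmem255a with -2.73. Levels in both uterine libraries kept their order against both oviduct libraries in mesothelium except for Anxa1, Serpinb1a and Asic2, whose libraries overlapped. Of all genes tested in mesothelium, 47.8% stood apart in this way. The 16 genes were also named only where the ratio of mesothelium to stroma did not overlap between organs, which favours such an order.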

How the results depend on the processing

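The count of 645 genes that differed between uterine and oviduct mesothelium became 292 with no filter on low counts, 327 with DESeq2 and 116 with each cell thinned to 3000 UMIs, and ranged from 568 to 860 with 1 library left out. The count of 2102 genes whose organ difference differed from stroma became 1116 with DESeq2 (686 towards the uterus and 430 towards the oviduct, against 1025 and 1077) and 549 with thinned cells, and ranged from 1042 to 1689 with 1 library left out, the lowest without uterus library 1. With the replicate number as a block, which pairs same-numbered libraries, the count between organs was 958. Against stroma that block took the place of the term for each library, so mesothelium and stroma of a library were no longer paired, and the count was 1651. None of the 111 and 16 named genes changed its call in these fits. Thinning and the subtraction of mesothelial RNA from stroma (2110 genes) were chosen after seeing the data. Thinning turned the difference of Wnt4 to 0.15 (adjusted p = 0.905). With thinned cells fewer UMIs were tested and each cell had equal weight. The cause of the changes was not tested for any alternative. Named genes lost their call most often with thinned cells (39, and Wnt4), no filter (28) and DESeq2 (20), and Foxl2, Col6a3 and Wnt4 in 11, 10 and 10 alternatives. Of the 16 genes named against stroma, Sp5 lost its call, with thinned cells.

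The difference in the share of members was -5.36 points with thinned cells and ranged from -4.88 to -3.39 with 1 library left out. The difference in cycling cells turned to 2.04 points without uterus library 1 and ranged from -8.27 to 2.04. With 1201430 and 1047800 UMIs in the uterine members, genes under a few CPM rest on single UMIs, and 57 and 48 cells limit every share.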

Other observations

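Cells that met the marker part of the rule but held Epcam or Pecam1 were not members, and 35 and 31 such cells were found in the uterus libraries. Of them, 11 and 9 held a single UMI of Epcam, 20 and 18 held more, and 5 and 6 held Pecam1. They had more UMIs than members, with medians of 23633 and 37468, and summed levels of 712 and 623 CPM of Epcam and of 78.5 and 67.2 CPM of Pax8. In the oviduct libraries 270 and 281 such cells were found, with 266 and 371 CPM of Epcam.

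Further values stood out within the members. Cd3e was detected in 28.1% and 39.6% of uterine members and at 39.8 and 82.8 CPM in oviduct mesothelium, where library 2 again stood above library 1, while the other subunits Cd3d and Cd3g were at 0.832 and 0 and 0 and 0 CPM in uterine members. Fxyd3 was at 876 and 915 CPM in uterine and 299 and 237 CPM in oviduct mesothelium (1.71 ± 0.14, edgeR adjusted p = 3.13e-06), and Podn at 104 and 138 and 40.3 and 54.7 CPM (1.31 ± 0.18, adjusted p = 3.01e-04). Both were leading genes, chosen by their level in the uterine libraries alone, which favours a higher uterine value. Not all leading genes stood higher in the uterus than in the oviduct.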
